A study of Homo sapiens with 9 samples.

Results

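The 10 genes described here are the cytoplasmic actins ACTB and ACTG1 and regulators of the actin monomer pool: CFL1, CFL2, PFN1, PFN2, TMSB4X, TMSB10, CAP1 and WDR1. They were taken by gene symbol for their place in actin turnover, with earlier results of these data already known, and all 10 were among the 19969 gene rows of the count table. Their counts were compared across 9 libraries of ribosomal-RNA-depleted RNA from HEK293T, a human embryonic kidney cell line. Of these, 6 carried the label FHY1-M3 and a guide RNA (sgRNA): 2 libraries for the ACTB sgRNA, 2 for con and 2 for non-target. Another 3 were labelled input, with no construct or guide named. The series is about editing N6-methyladenosine, adenosine in mRNA that carries a methyl group, with tools switched by red and far-red light. The labels do not give the light that each culture received, the culture of origin of each replicate, how the constructs were delivered, or whether RNA was immunoprecipitated before the FHY1-M3 libraries were made. The con libraries are named con_ACTB_sgRNA in the count table and con_sgRNA in the sample titles, so whether they also carried the ACTB guide is not known. With no statement that replicates were separate cultures, p-values measure only library-to-library spread, possibly technical. On GRCh38.p14 (RefSeq), ACTB lies at chr7:5527148-5530601, ACTG1 at chr17:81509971-81512799, PFN1 at chr17:4945652-4948530, TMSB10 at chr2:84905656-84906671, CAP1 at chr1:40040240-40072648 and WDR1 at chr4:10074339-10116799.

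Actin cycles between monomers and filaments. ACTB and ACTG1 encode beta-actin and gamma-actin, the cytoplasmic actins of non-muscle cells, which are nearly identical proteins. Cofilins (CFL1, the non-muscle form, and CFL2, the form best known from muscle) sever and depolymerise filaments, and WDR1 works with cofilin in disassembly. CAP1 binds monomers and helps to recycle them. Profilins (PFN1, the widely expressed form, and PFN2) deliver monomers to growing filament ends, while thymosins (TMSB4X and TMSB10) hold monomers in reserve. Free monomer also keeps the coactivators MRTFA and MRTFB away from the transcription factor SRF, and many actin genes are SRF targets. ACTB is the gene that the guide names and, together with ACTG1, is widely used as a loading or reference gene.

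The promoter sequence of ACTG1 is shown because ACTG1 differed least of the 10 genes from input, and those of PFN1 and WDR1 because these had the calls that held under every alternative, PFN1 lower and WDR1 higher. Each is the 250 bases before the gene start, 5′ to 3′ on the strand of the gene, from RefSeq (GRCh38.p14). Capitals mark matches, on either strand, to the CArG box bound by SRF, to CCAAT, to GGGCGG (a GC box) and to TATAAA; overlapping GC boxes run together.
ACTG1, chr17:81512800-81513049, minus strand: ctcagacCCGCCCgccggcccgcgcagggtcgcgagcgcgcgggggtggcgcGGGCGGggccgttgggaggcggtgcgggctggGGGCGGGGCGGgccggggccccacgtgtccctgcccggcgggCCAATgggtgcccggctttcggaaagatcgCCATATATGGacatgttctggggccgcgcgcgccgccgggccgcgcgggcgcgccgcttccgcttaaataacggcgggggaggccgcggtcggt
PFN1, chr17:4948531-4948780, minus strand: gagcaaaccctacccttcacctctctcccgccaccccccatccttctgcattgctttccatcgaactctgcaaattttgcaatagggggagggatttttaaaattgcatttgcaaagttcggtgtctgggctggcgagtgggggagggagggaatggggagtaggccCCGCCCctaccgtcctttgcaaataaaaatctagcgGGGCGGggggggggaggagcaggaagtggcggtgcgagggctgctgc
WDR1, chr4:10116800-10117049, minus strand: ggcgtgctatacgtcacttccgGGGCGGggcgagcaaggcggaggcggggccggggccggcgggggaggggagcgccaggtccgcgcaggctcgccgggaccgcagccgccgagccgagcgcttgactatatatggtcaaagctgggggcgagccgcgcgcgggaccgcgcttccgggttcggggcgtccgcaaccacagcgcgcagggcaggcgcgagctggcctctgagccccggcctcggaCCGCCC
Of the 10 genes 8 matched an entry, all but ACTB and PFN2. A CArG box, CCATATATGG at 94 bases before the start of ACTG1, was found in 1 of the 8 genes, while 1.16% of all 35116 windows of this length held one. Only CCWWWWWWGG (W is A or T) with no mismatch was marked and counted, so near matches such as ctatatatgg in WDR1 were not. CCAAT was found in 3 of the 8 (32.0% of all windows), GGGCGG in 8 (42.6%) and TATAAA in 0 (10.7%). CFL2 and CAP1 had more than 1 start site, and a match in any of their windows was counted. These matches describe letters and not binding.

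The FHY1-M3 libraries held 2900021 to 3802681 counts and the inputs 350413 to 643954. Mitochondrial mRNAs took 0.589% ± 0.0261 of counts in the FHY1-M3 libraries (SD, n = 6) and 7.67% ± 0.142 in the inputs (n = 3), so depth and make-up of the libraries move with that comparison. All 10 genes checked for this line, among them VIM and NEFM, had counts, and their summed level was 1908 to 2050 CPM for FHY1-M3 and 2119 to 2383 CPM in the inputs. Of markers of other cell types, 2 lists separated the groups without overlap. The 6 muscle markers summed to 16.8 to 36 CPM for FHY1-M3 and 0 to 16.3 CPM for input, and all 6 had counts, most of them in MYH3, an embryonic myosin (447 counts over the FHY1-M3 libraries and 16 over the inputs). The 5 endothelial markers, of which 4 had counts, summed to 0 to 3.12 CPM and 5.23 to 17.4 CPM, with at most 6 counts per gene over the 3 inputs. Markers of fibroblasts (23.1 to 54.7 CPM and 15.7 to 75.2 CPM), blood (6.15 to 16.6 CPM and 0 to 27.6 CPM) and hepatocytes (0 to 6.15 CPM and 0 to 15.7 CPM) overlapped. The part of these markers in the differences from input was not tested. PTPRC, CDH5 and TTR were at 0 counts in all libraries. In a bulk library fewer cells of a type and less RNA per cell cannot be told apart. Of gene counts from 1 to 20, between 88.5% and 95% per library were even, as where both mates of a pair are counted, so counts may overstate the number of fragments.

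Levels below are CPM (counts relative to library size, with TMM factors over all 9 libraries) and are compared between libraries only, since transcript lengths were not used. Folds come from edgeR quasi-likelihood fits over all genes, with Benjamini-Hochberg adjusted p-values and a threshold of 0.05. ACTB and ACTG1 share most of their coding sequence, and TMSB4X and several other members have processed pseudogenes; how the counting treated reads that match several places is not given in the sources used here, so single values of these genes are uncertain.

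Between guides the actins were nearly level. ACTB stood at 1383 and 1310 CPM under its own sgRNA, 1375 and 1371 CPM under con, and 1338 and 1322 CPM under non-target sgRNA. The ACTB sgRNA libraries were the highest and the lowest of the 6. ACTG1 stood at 2190 and 2267 CPM under ACTB sgRNA, 2252 and 2104 CPM under con, and 2144 and 2150 CPM under non-target sgRNA. Its ACTB sgRNA libraries both lay above the non-target libraries, by a log2 fold change of 0.06 (SE 0.05, 95% interval -0.04 to 0.15, adjusted p = 0.809). Across the 6 FHY1-M3 libraries the coefficient of variation was 2.28% for ACTB and 2.95% for ACTG1, the smallest spreads among the 10 genes. These were also the genes with the most counts there, 28901 and 46722, with CFL1 next at 5971. The part of count depth in these spreads was not tested.

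**Figure D1:**
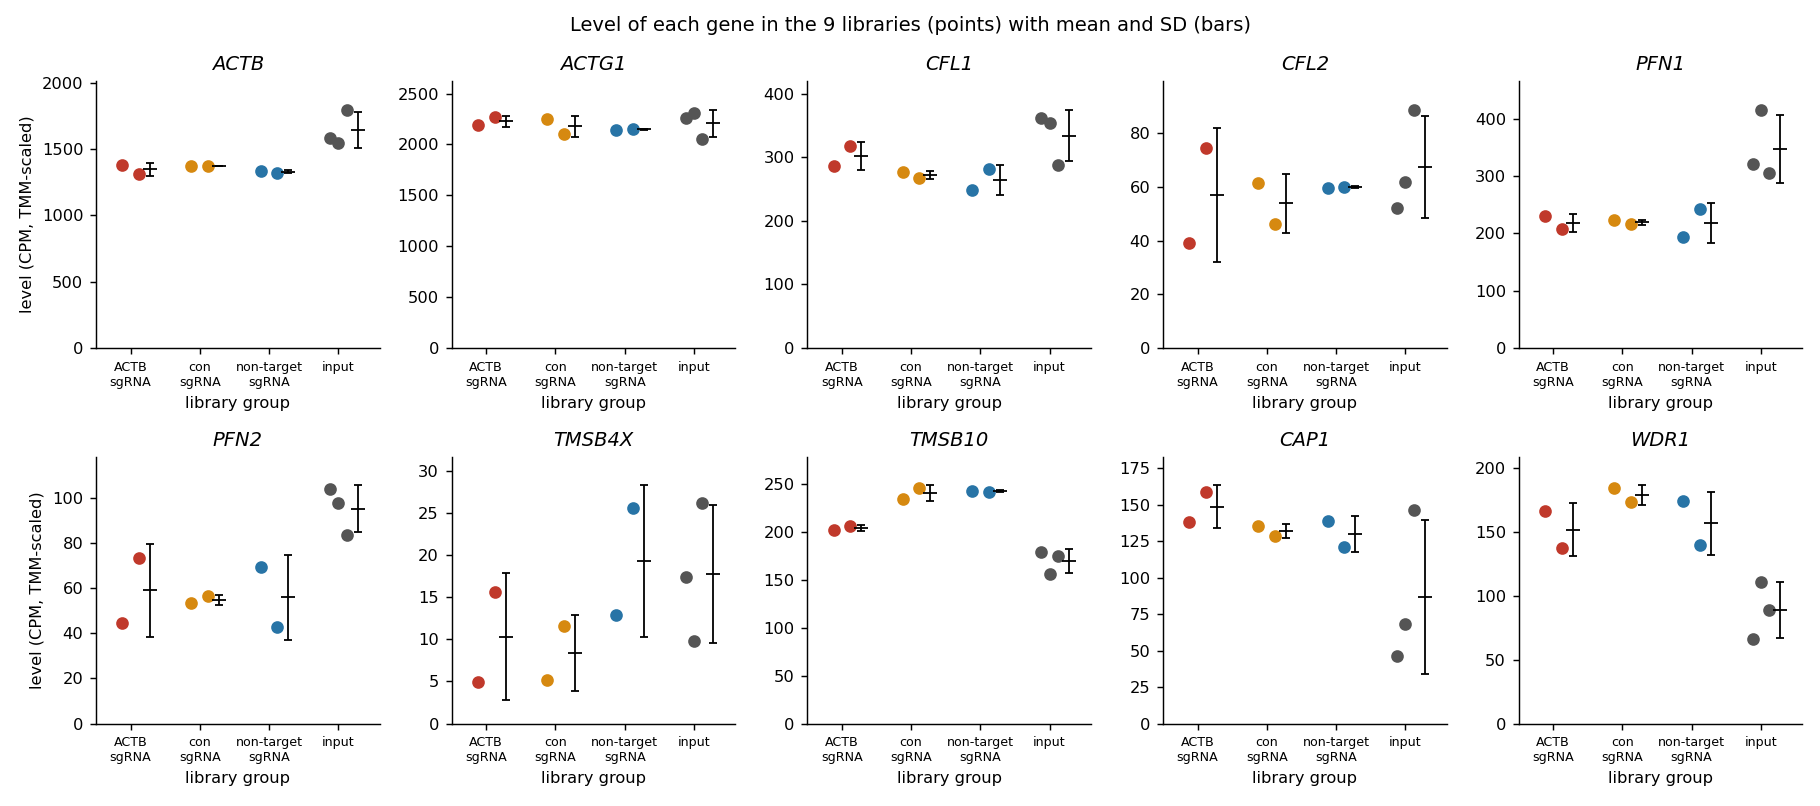
Level of each of the 10 genes (CPM, linear axis from 0) in every library, by guide and input; points are libraries and bars are mean and SD (n = 2 per guide, n = 3 for input). ACTB, PFN1 and PFN2 are higher in all 3 inputs than in any FHY1-M3 library, and TMSB10 and WDR1 are lower.

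Among the genes of filament turnover, CFL1 was at 286.5 and 317.5 CPM under ACTB sgRNA, 277.4 and 268.2 CPM under con, and 248.2 and 281.2 CPM under non-target sgRNA. Both ACTB sgRNA libraries were above all 4 others, and the log2 fold change was 0.20 (SE 0.13, 95% interval -0.07 to 0.46, adjusted p = 0.748) against non-target and 0.15 (SE 0.13, adjusted p = 1) against con sgRNA. CFL2 varied more between replicates than between guides, from 39.2 to 74.6 CPM, both extremes being ACTB sgRNA libraries. CAP1 lay between 121 and 159.1 CPM and WDR1 between 137.1 and 184.1 CPM in the 6 libraries. Both ACTB sgRNA libraries were above the con libraries in CAP1 (log2 0.17, SE 0.19) and below them in WDR1 (-0.23, SE 0.17), and neither difference passed (adjusted p = 1 for each).

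Among the monomer-binding genes, TMSB10 was at 202 and 206.2 CPM under ACTB sgRNA, 234.8 and 246.4 CPM under con, and 243.4 and 241.9 CPM under non-target sgRNA. The ACTB sgRNA libraries were thus the lowest 2 of the 6. The log2 fold change was -0.25 (SE 0.14, 95% interval -0.53 to 0.04, adjusted p = 0.693) against non-target and -0.23 (SE 0.14, interval -0.52 to 0.05, adjusted p = 1) against con sgRNA, and neither passed. PFN1 ranged from 193.7 to 242.6 CPM, and both of these were non-target libraries. Its log2 fold change of the ACTB sgRNA was 0.01 (SE 0.15) against non-target and 0.00 (SE 0.15) against con sgRNA. PFN2 ranged from 42.7 to 73.5 CPM, with the widest gap between replicates inside the ACTB and non-target groups. TMSB4X held only 18 and 54 counts under ACTB sgRNA, 20 and 44 under con, and 48 and 75 under non-target sgRNA. Its log2 fold change of con against non-target sgRNA was -1.19 (SE 0.67, 95% interval -2.54 to 0.15, adjusted p = 0.932), an interval of folds from 0.172 to 1.11.

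In the 3 guide comparisons 0 of the 10 genes passed, and 0 had an unadjusted p under 0.05. Over all 12808 genes tested, 0.25% passed between ACTB and non-target sgRNA, 0.0312% between ACTB and con sgRNA and 0.172% between con and non-target sgRNA. The shares of all genes with such an unadjusted p were 7.82%, 3.86% and 5.25% in that order. DESeq2 also called 0 of the 10 in each. The 2 libraries of one guide lay wholly to one side of the other 2 for 3 of the 10 genes between ACTB and non-target, 4 between ACTB and con, and 2 between con and non-target sgRNA. The same was true of 35.1%, 34.2% and 34.8% of all genes, so these separations are at about the rate of the whole table. The median log2 fold change of the 10 genes was 0.02, 0.06 and 0.02, against 0.00 for all genes in each comparison. The comparisons share libraries, so they are not independent of each other.

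**Figure D2:**
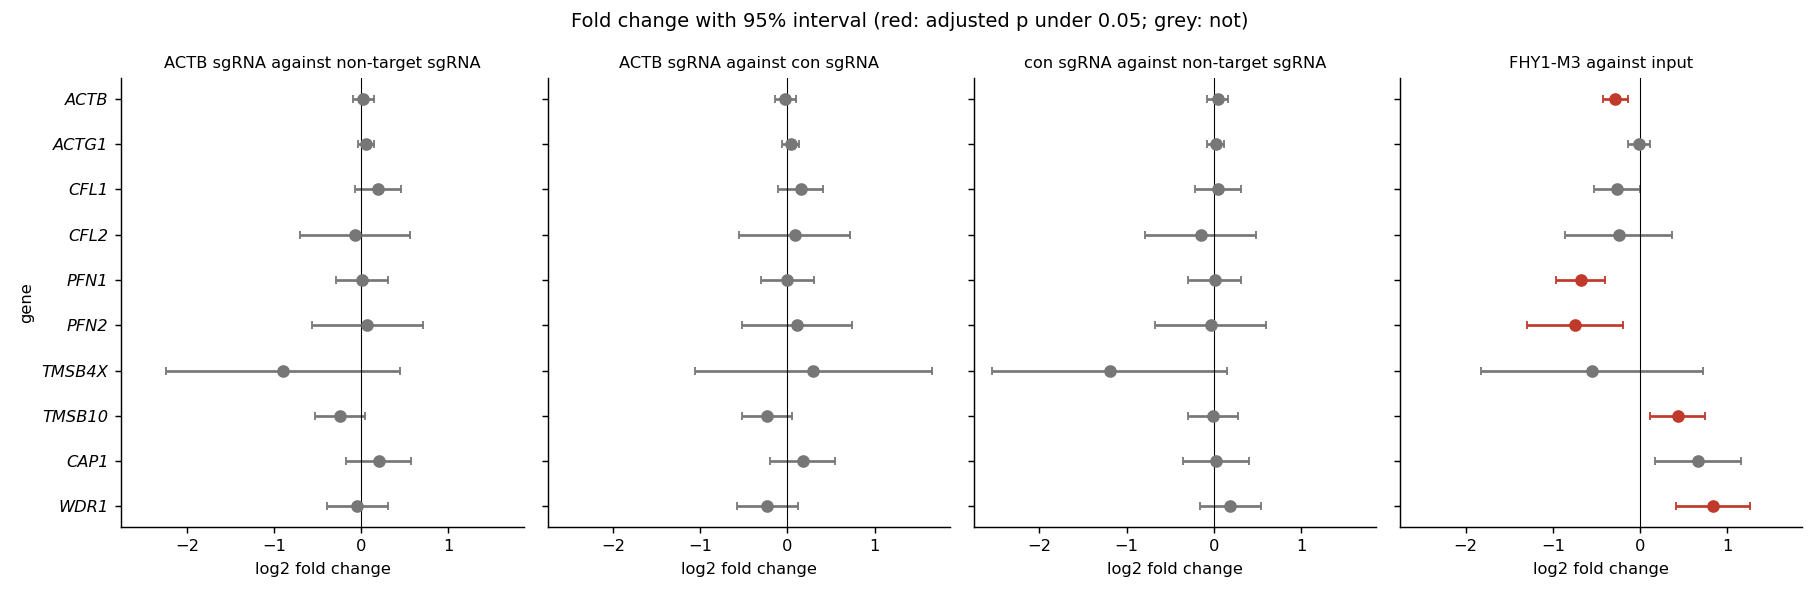
log2 fold change with 95% interval for each gene in the 3 guide comparisons and in FHY1-M3 against input; red points passed an adjusted p of 0.05. Every interval between guides spans 0, and 5 genes passed against input.

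The FHY1-M3 libraries (n = 6) were then compared with the inputs (n = 3). The input libraries of ACTB stood at 1587, 1546 and 1798 CPM, all above the FHY1-M3 libraries, whose lowest, median and highest values were 1310, 1355 and 1383 CPM. FHY1-M3 was below input in ACTB by a log2 fold change of -0.28 (SE 0.07, 95% interval -0.43 to -0.14, adjusted p = 0.00375), a fold of 0.822. ACTG1 stood at 2264, 2305 and 2055 CPM in the inputs and 2104 to 2267 CPM in the FHY1-M3 libraries. These ranges overlap, and the log2 fold change was -0.02 (SE 0.06, 95% interval -0.14 to 0.11, adjusted p = 0.895).

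The ratio of ACTB to ACTG1 counts inside a library does not depend on scaling between libraries. Its log2 was -0.51, -0.58 and -0.19 in the inputs, and between -0.79 and -0.62 in the FHY1-M3 libraries. All 6 FHY1-M3 libraries were below all 3 inputs, with means of -0.69 ± 0.06 and -0.43 ± 0.21 (SD, n = 6 and 3). The difference of -0.27 gave p = 0.0119 in a two-sided exact permutation test, the smallest p that 6 against 3 libraries allow, and 0.0476 after Benjamini-Hochberg adjustment over 4 paralog pairs. The size rests partly on input replicate 3, the input with the highest ACTB and the lowest ACTG1. Without that library the difference was -0.15, and it was -0.34 to -0.25 without any other 1 library. With a library left out, the exact p of a single pair adjusted over 4 pairs cannot go below 0.0714 (an FHY1-M3 library) or 0.143 (an input), so these tests could not pass and say nothing about stability. Between guides the mean log2 ratio was -0.73 ± 0.09 with the ACTB sgRNA, -0.67 ± 0.07 with the con sgRNA and -0.69 ± 0.02 with the non-target sgRNA (SD, n = 2 each). An exact test of 2 against 2 libraries cannot give a p below 0.333.

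**Figure D3:**
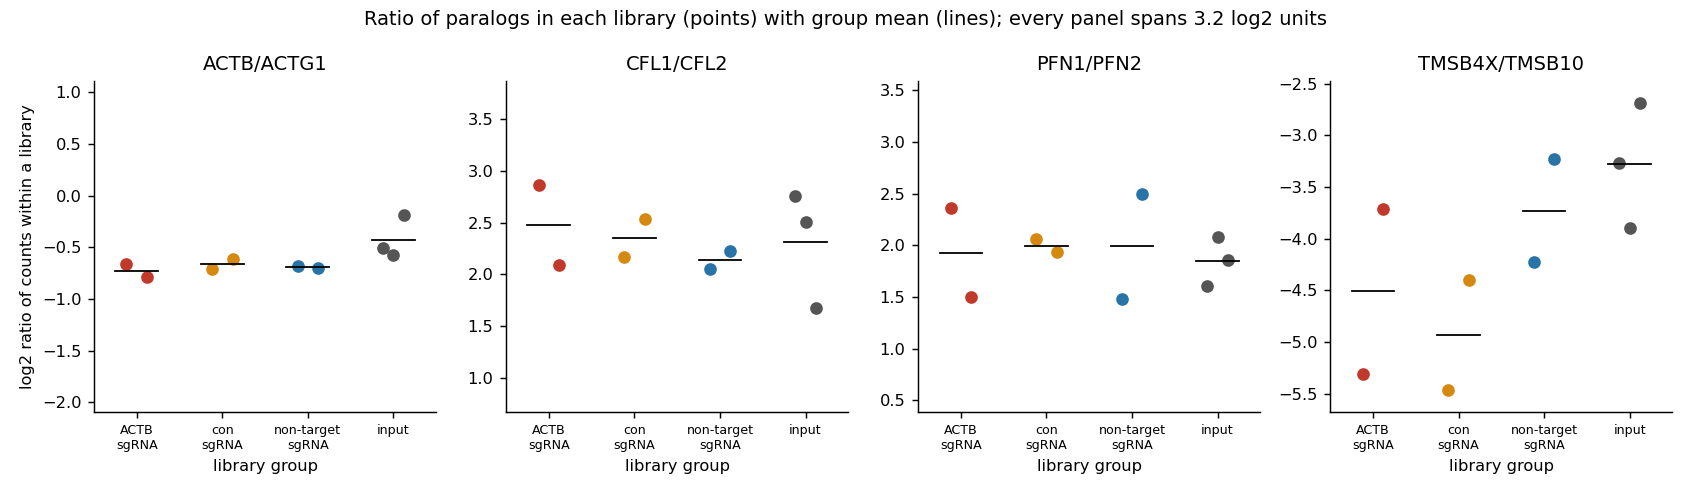
log2 ratio of the counts of 2 paralogs within each library (points) with group means (lines); every panel spans the same number of log2 units. The ACTB/ACTG1 ratio is below all inputs in the 6 FHY1-M3 libraries, while the other 3 pairs overlap.

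Both profilins were lower than in input. PFN1 stood at 320.9, 416.1 and 305.8 CPM in the inputs, and its lowest, median and highest FHY1-M3 values were 193.7, 219.4 and 242.6 CPM. The groups did not overlap, and the log2 fold change was -0.68 (SE 0.14, 95% interval -0.96 to -0.40, adjusted p = 0.000439), a fold of 0.624. Taken singly, the guides stood at -0.68 for the ACTB, -0.68 for the con and -0.69 for the non-target sgRNA against the same inputs. PFN2 stood at 104.1, 97.5 and 83.7 CPM in the inputs and at 42.7 to 73.5 CPM in the FHY1-M3 libraries, again without overlap. Its log2 fold change was -0.75 (SE 0.27, 95% interval -1.30 to -0.20, adjusted p = 0.0467). The PFN2 call was near the threshold: it was kept without ACTB sgRNA replicate 2 or non-target replicate 1 and lost without any 1 of the other 7 libraries. The adjusted p was 0.133 without ACTB sgRNA replicate 1, 0.101 and 0.0845 without con replicates 1 and 2, 0.119 without non-target replicate 2, and 0.102, 0.118 and 0.0526 without inputs 1, 2 and 3. The PFN2 call was also lost with unscaled library sizes (0.0645), with no low-count filter (0.0501) and with each guide alone (0.139 to 0.211). The PFN1/PFN2 ratio overlapped between groups (log2 difference 0.12, exact permutation p = 0.679).

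The genes of filament disassembly and monomer recycling did not move as one. WDR1 stood at 66.5, 110.5 and 88.9 CPM in the inputs and at 137.1 to 184.1 CPM, with a median of 169.8 CPM, across the FHY1-M3 libraries. All 6 were above all inputs, and the log2 fold change was 0.84 (SE 0.21, 95% interval 0.42 to 1.26, adjusted p = 0.00325), a fold of 1.79. For WDR1 the guides gave 0.74, 0.98 and 0.79 (ACTB, con and non-target) against the same inputs. CAP1 stood at 46.3, 68.3 and 146.4 CPM in the inputs, a coefficient of variation of 60.5%, and at 121 to 159.1 CPM in the FHY1-M3 libraries. Its log2 fold change of 0.66 (SE 0.25, 95% interval 0.17 to 1.16) missed the threshold at an adjusted p of 0.0502. Without input replicate 3, the one input inside the FHY1-M3 range, CAP1 was at a log2 of 1.21 (adjusted p = 0.00112). CFL1 was at 361.4, 354.3 and 287.5 CPM in the inputs, and its log2 fold change of -0.26 (SE 0.13, 95% interval -0.53 to 0.00, adjusted p = 0.16) did not pass. DESeq2 gave -0.34 for CFL1 and called it (adjusted p = 0.033). CFL2 was at 52, 61.8 and 88.9 CPM in the inputs, on 18, 38 and 34 counts, and its log2 fold change was -0.25 (SE 0.30, adjusted p = 0.619).

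Of the thymosins, TMSB10 was higher than in input. It stood at 179.2, 156 and 175.1 CPM in the inputs and at 202 to 246.4 CPM in the FHY1-M3 libraries, without overlap, and the ACTB sgRNA libraries were the nearest to the inputs. The log2 fold change was 0.43 (SE 0.16, 95% interval 0.12 to 0.75, adjusted p = 0.0441), a fold of 1.35. The TMSB10 call was lost without any 1 library other than input replicate 1: the adjusted p was 0.0766 and 0.0841 without ACTB sgRNA replicates 1 and 2, 0.0911 and 0.118 without con, 0.0736 and 0.07 without non-target replicates 1 and 2, and 0.145 and 0.0646 without inputs 2 and 3. DESeq2 did not call it (adjusted p = 0.0568), nor did the fit with FHY1-M3 libraries thinned to the input depth (log2 0.34, adjusted p = 0.153). The TMSB10 call was also lost with halved counts (0.0813), median-ratio factors (0.107) and a mean of at least 10 CPM (0.0879). Over all 21 alternatives it was lost in 17. TMSB4X had 6, 6 and 10 counts in the inputs, or 17.4, 9.75 and 26.1 CPM, and 4.97 to 25.6 CPM in the FHY1-M3 libraries. Its log2 fold change was -0.55 (SE 0.63, 95% interval -1.82 to 0.73, adjusted p = 0.592), and at this depth a difference was not detectable.

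Against input, 5 of the 10 genes passed, 2 higher and 3 lower. Over all 13411 genes tested, 20% passed, with 11.4% higher and 8.6% lower. At an unadjusted p under 0.05 in edgeR stood 6 of the 10, and 31.9% of all genes. Of the 10, 9 had a mean of at least 50 CPM, a level chosen after the values were seen, and among all 5282 genes that reached it 34% passed, with 21.5% higher and 12.4% lower. The libraries of the groups did not overlap for 5 of the 10 genes and for 23.4% of all genes. The median log2 fold change of the 10 was -0.25, with a range from -0.75 to 0.84, and that of all genes was 0.04. The 10 genes together took 0.474% ± 0.00878 of counts in the FHY1-M3 libraries and 0.492% ± 0.00228 in the inputs (SD, n = 6 and 3). The calls for PFN1 and WDR1 were kept in all 21 alternative analyses and that for ACTB in 20, the exception being the con sgRNA libraries alone against input (log2 -0.26, adjusted p = 0.0617). ACTB, PFN1 and WDR1 kept their direction and call when mitochondrial and histone genes were removed before scaling, and when the FHY1-M3 libraries were thinned to the input depth. Thinning matched total counts and drew each count on its own. Where both mates were counted, a thinned library may hold more fragments than an input of the same total. Beyond those settings the part of library make-up in these differences was not tested, and construct, guide and library preparation cannot be told apart in this comparison.

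**Figure D4:**
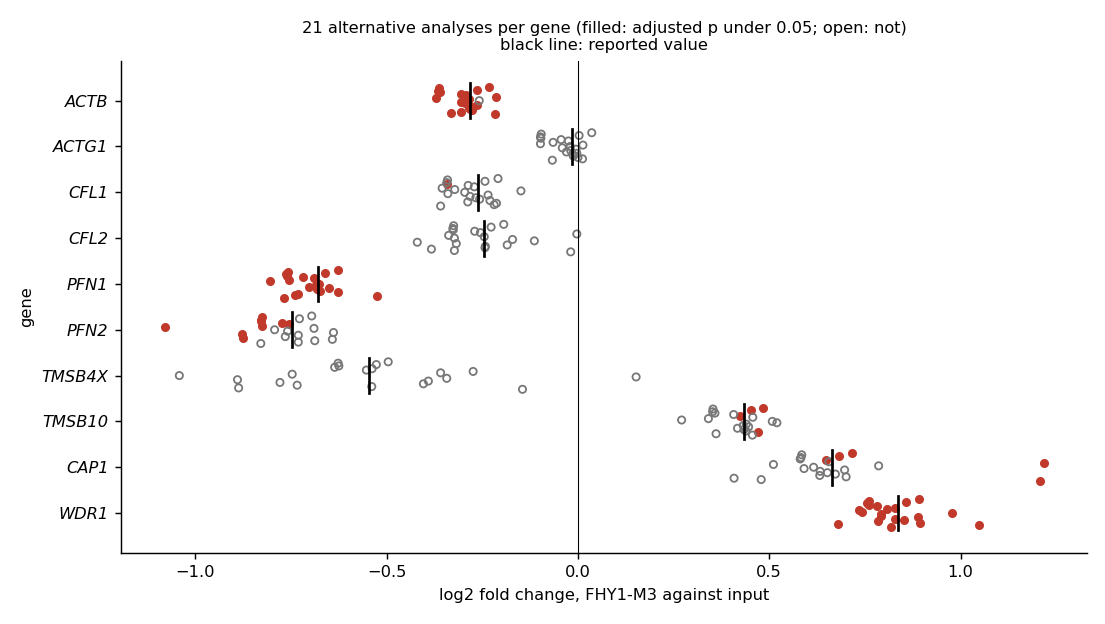
log2 fold change against input of each gene in the 21 alternative analyses (filled points passed an adjusted p of 0.05, open points did not); black lines are the reported values. ACTB stays between -0.37 and -0.21, PFN1 between -0.81 and -0.52 and WDR1 between 0.68 and 1.05.

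The closest patterns to ACTB over the 9 libraries, among 869 other genes with a mean of at least 200 CPM, belonged to RPL12 and RPS4X, genes of cytosolic ribosomal proteins, and TOMM20, a subunit of the mitochondrial import receptor. The root mean square difference from ACTB, on log2 CPM centred for each gene, was 0.05 for RPL12 and RPS4X and 0.07 for TOMM20. ACTG1 came 125th by this measure (0.17), CFL1 144th (0.17), PFN1 319th (0.25) and TMSB10 516th (0.35). Over these 9 libraries ACTB thus had many closer neighbours than its own paralog. Part of the distance of ACTG1 lay in input replicate 3, where the log2 ratio of ACTB to ACTG1 was -0.19. In the other libraries that ratio ran from -0.79 to -0.51. The ranks were not computed without input replicate 3.

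Other actin genes were read from lists by role. Between guides 0 genes of these lists passed in any comparison. Against input, filament capping genes had 3 of 9 tested genes lower and 0 higher (list median log2 -0.13), beside 8.6% of all genes lower and 11.4% higher. Of all genes with a mean of at least 50 CPM, 12.4% were lower. CAPZB, the beta subunit of capping protein, had a mean of 84.2 ± 2.25 CPM over the 6 FHY1-M3 libraries and 169.7 ± 40 CPM over the 3 inputs (SD), a fold of 0.499 (95% interval 0.376 to 0.662, adjusted p = 0.000351), with no overlap between groups. The tropomodulins TMOD2 (-1.52, SE 0.41, adjusted p = 0.00694) and TMOD3 (-0.95, SE 0.32, adjusted p = 0.0306), which cap pointed ends, were also called lower. Of the 9 capping genes 4 had a positive log2 fold change. The largest was that of the tropomodulin TMOD1 (1.32, SE 0.62, 95% interval 0.06 to 2.58), which did not pass (adjusted p = 0.136). TMOD3 was near the threshold and lost its call without any 1 library other than con replicate 1 and input replicate 3, with adjusted p up to 0.115. Over all 21 alternatives its call was lost in 9, with log2 from -1.47 to -0.53 and adjusted p up to 0.454. Between ACTB and non-target sgRNA TMOD3 was at 0.95 (SE 0.38, adjusted p = 0.509).

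Of 20 tested SRF and MRTF factors and targets, 2 were higher and 4 lower, with a median of 0.02. ACTN4, an actin crosslinker, had a mean of 323.1 ± 30.9 CPM over the FHY1-M3 libraries and 152.7 ± 54.4 CPM over the inputs (SD, n = 6 and 3; log2 1.04, SE 0.17, adjusted p = 1.85e-05). CNN2, a calponin (-1.52, SE 0.33, adjusted p = 0.000974), and TPM1, a tropomyosin (-0.98, SE 0.26, adjusted p = 0.00672), were lower. CCN2, a matricellular protein gene, was also called lower (-2.89, SE 1.05, adjusted p = 0.0462), on 4, 2 and 16 counts in the inputs. It was at -1.50 without input replicate 3 (adjusted p = 0.524), and its call was kept only without input replicate 2 among the left-out libraries. The regulators themselves did not pass. SRF was at a log2 of 0.28 (SE 0.25, 95% interval -0.220 to 0.779), MRTFA at 0.17 (SE 0.27, -0.375 to 0.708) and MRTFB at 0.04 (SE 0.26, -0.485 to 0.561).

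In the remaining lists single genes passed. Of 21 other turnover regulators 1 was higher and 0 lower, the coronin CORO1B (log2 1.04, SE 0.34, adjusted p = 0.0249). Its call was lost without ACTB sgRNA replicate 1 (0.0713), con replicate 2 (0.0749), non-target replicate 1 (0.0545) and inputs 2 (0.117) and 3 (0.121), and with the FHY1-M3 libraries thinned (log2 0.73, adjusted p = 0.157). In all, the CORO1B call was lost in 8 of the 21 alternatives, with adjusted p up to 0.253. Input replicate 1, at 57.8 CPM, lay above non-target replicate 2, at 53.3 CPM. DSTN, the third member of the cofilin family, was at -0.09 (SE 0.25) and did not pass. Of 19 formins and other nucleation or elongation factors 1 was lower and 0 higher, EVL of the Ena/VASP family (-0.84, SE 0.25, adjusted p = 0.014), which lost its call without input replicate 2 (0.0511) or 3 (0.161). The EVL call was lost in 5 of the 21 alternatives, with adjusted p up to 0.239. Its groups overlapped, with input replicate 1 at 69.4 CPM and the con libraries at 83.5 and 71.9 CPM. Of 15 maturation, folding and nuclear transport genes 1 was higher, the prefoldin gene PFDN5 (0.77, SE 0.21, adjusted p = 0.00939). In that list 1 was lower, C19orf54, also named ACTMAP, whose product matures the amino terminus of actin (-1.23, SE 0.33, adjusted p = 0.00626, and 0.066 without input replicate 1). Its call was lost in 2 of 21 alternatives, with adjusted p up to 0.195. At 54.7 CPM in ACTB sgRNA replicate 1, it lay inside the input range of 52.3 to 109.9 CPM. PFDN5 was at 0.60 (adjusted p = 0.0602) with the FHY1-M3 libraries thinned. These counts stand beside the 20% of all genes that passed, and the 34% among genes with a mean of at least 50 CPM.

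**Figure D5:**
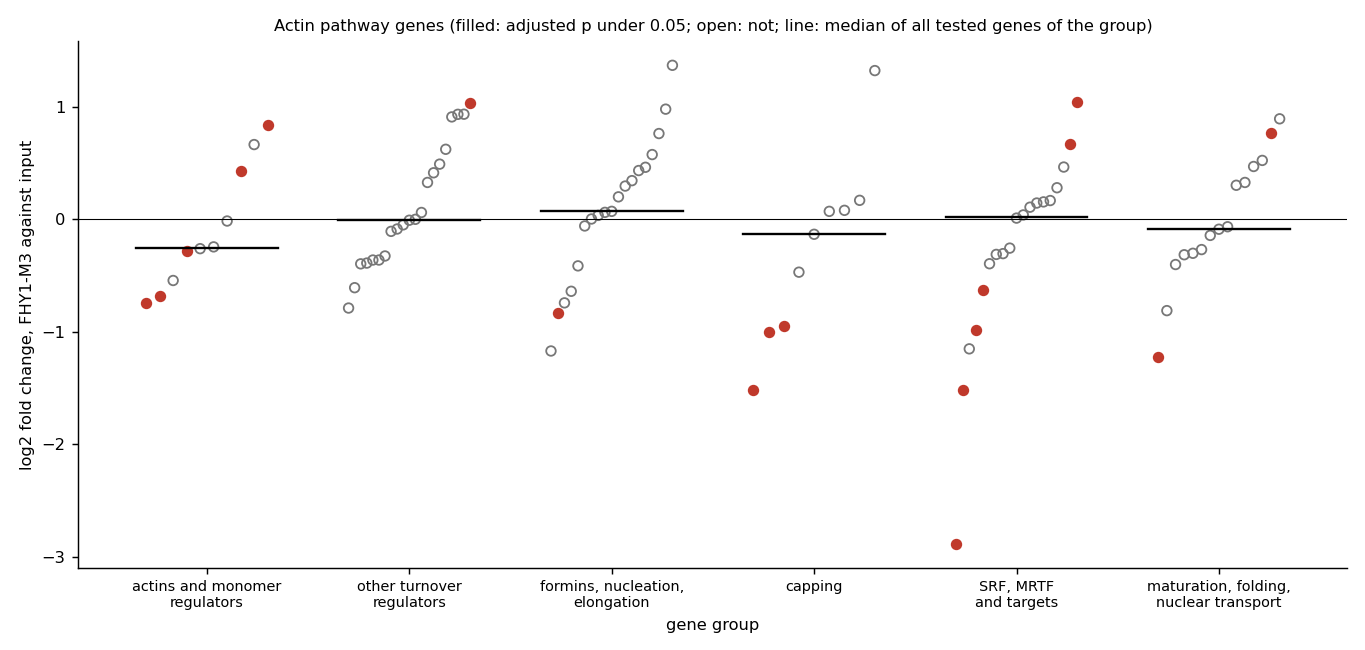
log2 fold change against input of the tested genes of each actin gene group except the muscle-type and actin-like genes, with the group median (line). Filled points passed an adjusted p of 0.05, open points did not. CNN1, which was at 0 in all inputs, is left out of the points. Capping genes past the threshold are all lower, while 4 of the 9 tested capping genes lie above 0. The SRF and MRTF group has calls in both directions.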

How the data were processed

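The authors deposited whole-number read counts per gene symbol, 1 column per library, with no normalization seen in the values. Per the submitters' processing notes, cutadapt 4.3, STAR 2.7.10b, deepTools and hg38 were used, without their roles; for the counting tool, strand setting and annotation, nothing is given in the sources used here. TRIzol RNA and a directional library kit are named, per the labels' protocols.

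Counts were fitted with edgeR 4.0.16 in R 4.3.3 (quasi-likelihood F test, filterByExpr, TMM), two-sided, over the whole table. The guide comparisons used 1 fit of the 6 FHY1-M3 libraries. FHY1-M3 against input used 1 fit of all 9, as the mean of the 3 guides minus input. The SE of a log2 fold change came from its F statistic. Paralog ratios added 0.5 to each count. Alternatives, with DESeq2 1.42.0 among them, are in the closing section. The members, lists and tests were chosen with earlier results of these data known. Every member was named, and from each list up to 4 genes past the threshold with the largest fold and a mean of at least 5 CPM. Gene positions and promoters are from RefSeq (GRCh38.p14).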

Additional observations from a re-analysis of the deposited data

How the results depend on the processing

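Across 21 alternatives of FHY1-M3 against input, PFN1 and WDR1 kept direction and call. The higher count of 2 genes was 1 with median-ratio factors, a mean of at least 10 CPM, DESeq2, thinning to 462026 counts and each guide alone, 3 with unscaled library sizes and with no low-count filter, and 1 to 2 with a library left out. With halved counts it stayed at 2, but with CAP1 in place of TMSB10. The lower count of 3 was 1 with the con sgRNA alone, 2 with unscaled sizes, no filter and either other guide alone, 4 in DESeq2, and 2 to 3 with a library left out. ACTB alone with the con sgRNA was at -0.26 (adjusted p = 0.0617). ACTG1 changed sign to 0.036 with unscaled library sizes, 0.003 with no low-count filter, 0.013 with the ACTB sgRNA alone and -0.067 to 0.012 with a library left out, and TMSB4X to 0.15 with the non-target sgRNA alone. CAP1 passed with unscaled library sizes (adjusted p = 0.0324), no filter (0.019), halved counts (0.0486) and the replicate block. Genes called against input were 2677, but 1477 for the ACTB, 1534 for the con and 1699 for the non-target guide alone. With unscaled sizes 62.3% of calls were higher, with median-ratio factors 48.2%, against 56.9% reported.

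Between guides, 0 of the 10 genes passed under any of the 15 alternatives. Counts over all genes were 32 for ACTB against non-target sgRNA (21 with a mean of at least 10 CPM, 66 in DESeq2, 16 with all 9 libraries, 18 to 35 with a library left out). They were 4 for ACTB against con (7 with no filter, 2 without mitochondrial and histone genes, 0 with all 9 libraries, 0 to 3 with a library left out). They were 22 for con against non-target (12 with a mean of at least 10 CPM, 38 in DESeq2, 10 to 27 with a library left out). Signs changed only when a library was left out. For ACTB against non-target sgRNA the log2 ranges were -0.016 to 0.063 (ACTB), -0.60 to 0.32 (CFL2), -0.15 to 0.18 (PFN1), -0.33 to 0.47 (PFN2) and -0.20 to 0.13 (WDR1). For ACTB against con they were -0.065 to 0.014 (ACTB), -0.017 to 0.085 (ACTG1), -0.46 to 0.47 (CFL2), -0.077 to 0.069 (PFN1), -0.30 to 0.42 (PFN2) and -0.74 to 0.98 (TMSB4X). For con against non-target they were -0.030 to 0.073 (ACTG1), -0.042 to 0.14 (CFL1), -0.38 to 0.045 (CFL2), -0.14 to 0.18 (PFN1), -0.34 to 0.36 (PFN2), -0.044 to 0.021 (TMSB10) and -0.068 to 0.13 (CAP1). The ACTB/ACTG1 difference was -0.34 to -0.15 and that of CFL1/CFL2 -0.31 to 0.23 with a library left out.

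Deviations of replicate 1 from its group mean correlated at -0.012 to 0.01 between groups. Inputs 2 and 3 were not compared in this way, and the labels give no origin of replicates. Whether the replicate numbers pair the libraries is therefore not settled. With the replicate block ACTB was at -0.215 against input, CAP1 passed (log2 1.22, adjusted p = 0.000485) and TMSB10 (adjusted p = 0.08), EVL (0.187), CORO1B (0.131) and CCN2 (-1.54, 0.516) did not. Replicate 3 exists only among the inputs, so the block fitted input replicate 3 by itself and took it out of this contrast. The block values are therefore close to those without that library, where CAP1 was at 1.21 and CCN2 at -1.50. The block is not an alternative separate from that one. TMSB4X had 6 to 10 counts and CFL2 18 to 38 in the inputs. The cause of the changes under the other settings was not tested.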

Other observations

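The muscle-type actins were nearly silent. ACTA1, skeletal muscle alpha-actin, was at 4.16 ± 2.67 CPM in the FHY1-M3 libraries (SD, n = 6) and at 0 counts in the 3 inputs, and did not pass against input (edgeR adjusted p = 0.158). ACTA2, smooth muscle alpha-actin, was at 6.46 ± 4.01 CPM and 9.69 ± 6.66 CPM. ACTBL2, a beta-actin-like gene, had 0 counts in every library. CNN1, a smooth muscle calponin, was at 5.40 ± 4.65 CPM and at 0 in the inputs (adjusted p = 0.122).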
